A study of Mus musculus with 2 samples.

Results

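Interferon-induced genes are the transcripts that a cell raises when type I interferons or interferon-γ (IFN-γ) reach its surface. A list of 42 such mouse genes was followed here in Th2 cultures, the CD4 helper lineage that secretes interleukin-4 (IL-4), from Ecm1 knockout and wild-type mice. The genes were chosen by name and split by role into 36 type I effectors and 6 GTPases of the IFN-γ response. Of the 42, 39 had at least 1 probe set annotated to that gene alone, out of 18193 genes named in this way. Isg15, Ifi44 and Ly6a had none and were given no expression value, though Isg15 and Ifi44 entered the promoter search.

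Female C57BL/6 mice aged 6 weeks gave the spleen cells of both groups, isolated with anti-CD4 beads, and the groups differed in Ecm1, the gene of a secreted matrix glycoprotein, with 1 array per group. For 4 days both cultures received plate-bound anti-CD3 at 3 µg/ml, soluble anti-CD28 at 2 µg/ml and 10 ng of IL-4, per a volume the label garbles. Neutralizing antibodies to IFN-γ and to IL-12 were added to both, each at 10 µg/ml. The labels do not state how many mice stand behind an array, nor which part of Ecm1 is deleted. With 1 array per group there is no replicate, no test and no error across animals, and every value below describes these 2 arrays.

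Type I interferons bind the receptor IFNAR and IFN-γ binds IFNGR. Both work through Janus kinases, and type I signalling brings STAT2 and IRF9 into a complex that binds the interferon-stimulated response element (ISRE). IFN-γ acts mainly through the gamma-activated site (GAS) and through IRF1. The induced proteins block viral RNA, proteins and entry, and the IFN-γ GTPases act on the vacuoles of intracellular microbes. In T cells, as in most cells, these genes serve as a common readout of interferon signalling.

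The labels were checked first. Ecm1 read 29114.7 in wild type against 19.3, below the floor, in the knockout. Markers of T cells were present on both arrays, with Cd3e at 3382.8 in the knockout against 6210.6 in wild type, and Cd4 at 932.2 and 3022.3. The sample descriptions name liver, and 0 of 6 hepatocyte genes reached the floor on either array. The floor is the median signal of an array (65.5 in the knockout, 69.2 in wild type), below which a signal was not read as a level. The knockout array went against the label of female mice, since the Y-linked Eif2s3y read 2214.4 there and 25.0 in wild type, and the brightest probe set of Xist, from the inactive X, read 8715.3 and 19739.9. This difference between the arrays cannot be told apart from genotype in anything below.

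Most of the listed genes with a promoter window held the core of the element the pathway is known for. RefSeq windows (GRCm38.p6) from 250 bases before to 50 bases after a start site were matched by symbol for 30 of the 42 genes. The core ISRE was searched on both strands as GAAA, any 2 bases, GAAA, and it lay in a window of 20 of the 30 genes (66.7%), against 1079 of 27025 genes with a window (4.0%). Among the IFN-γ GTPases it was present in 5 of 5, and among the type I effectors in 15 of 25. The core GAS, TTC, any 3 bases, GAA, lay in 9 of the 30 genes (30.0%) against 9.6% of all. A match describes letters in a window and does not show binding. Entries for Mx1, Mx2, Oas2, Usp18, Rtp4, Ifi27, Dhx58, Iigp1, Parp9, Parp14, Zbp1 and Ly6a were not used here.

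The stretches below show the matched ISRE cores, in capitals, in the 5 GTPases and in 6 type I effectors, each as 30 bases read 5′ to 3′ in the gene's direction. The core appears as GAAA repeats in most of them and as its complement, TTTC repeats, in Gbp2, Gbp3 and Rsad2. Neighbouring cores overlap in Irgm1, Gbp3 and Oas1a. Igtp and Irgm2, a pair of related genes on the same chromosome, also have an identical run of 61 bases elsewhere in their windows.
Igtp, chr11:58199512-58199541, plus strand: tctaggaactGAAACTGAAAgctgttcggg
Irgm1, chr11:48871428-48871457, minus strand: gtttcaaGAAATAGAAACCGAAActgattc
Irgm2, chr11:58214903-58214932, plus strand: tccaggaactGAAACTGAAAgctgttcggg
Gbp2, chr3:142620594-142620623, plus strand: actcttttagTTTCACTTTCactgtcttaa
Gbp3, chr3:142559992-142560021, plus strand: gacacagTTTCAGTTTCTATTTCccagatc
Oas1a, chr5:120907523-120907552, minus strand: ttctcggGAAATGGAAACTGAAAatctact
Oas3, chr5:120777715-120777744, minus strand: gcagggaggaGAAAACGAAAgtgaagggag
Rsad2, chr12:26456553-26456582, minus strand: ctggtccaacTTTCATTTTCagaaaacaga
Eif2ak2, chr17:78882535-78882564, minus strand: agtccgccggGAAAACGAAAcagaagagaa
Ifitm2, chr7:140955988-140956017, minus strand: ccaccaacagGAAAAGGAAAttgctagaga
Ifitm3, chr7:141010714-141010743, minus strand: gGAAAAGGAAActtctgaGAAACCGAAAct

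Among genes measured on both arrays and with a window, Ifit1bl1, Samd9l and Irgm2 had the lowest differences between knockout and wild type, and Ifitm3, Isg20 and Bst2 the highest. The 250 bases before the first listed start site of each are shown to set these extremes side by side. A core lies upstream in Ifit1bl1, Irgm2 and Bst2, and the cores of Ifitm3 follow its start site, in the stretch above. No ISRE core was found in the windows of Samd9l or Isg20. The windows of Irgm2, Ifitm3 and Bst2 and the first listed window of Isg20 each hold 1 GAS core, and those of Ifit1bl1 and Samd9l hold none. Lower and higher genes both carry the ISRE core.
Ifit1bl1, chr19:34601969-34602218, minus strand: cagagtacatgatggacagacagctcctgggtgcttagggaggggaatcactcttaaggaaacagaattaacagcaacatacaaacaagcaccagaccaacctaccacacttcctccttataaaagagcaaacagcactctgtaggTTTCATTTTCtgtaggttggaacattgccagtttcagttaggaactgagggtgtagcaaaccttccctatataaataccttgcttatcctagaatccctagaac
Samd9l, chr6:3399572-3399821, minus strand: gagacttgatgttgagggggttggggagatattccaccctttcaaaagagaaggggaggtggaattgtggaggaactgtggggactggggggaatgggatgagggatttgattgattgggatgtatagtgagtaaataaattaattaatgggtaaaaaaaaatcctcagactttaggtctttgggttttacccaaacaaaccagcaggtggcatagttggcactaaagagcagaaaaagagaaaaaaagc
Irgm2, chr11:58214727-58214976, plus strand: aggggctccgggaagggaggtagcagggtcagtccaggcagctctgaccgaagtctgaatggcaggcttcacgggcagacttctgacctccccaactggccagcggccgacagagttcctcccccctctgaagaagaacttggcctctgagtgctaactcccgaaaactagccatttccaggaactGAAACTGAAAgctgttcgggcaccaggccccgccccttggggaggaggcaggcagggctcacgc
Ifitm3, chr7:141010745-141010994, minus strand: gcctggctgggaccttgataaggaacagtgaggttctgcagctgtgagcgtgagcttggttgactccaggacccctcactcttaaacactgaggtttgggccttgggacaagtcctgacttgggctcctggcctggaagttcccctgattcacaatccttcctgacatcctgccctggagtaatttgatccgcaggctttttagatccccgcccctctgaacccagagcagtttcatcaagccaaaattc
Isg20, chr7:78913174-78913423, plus strand: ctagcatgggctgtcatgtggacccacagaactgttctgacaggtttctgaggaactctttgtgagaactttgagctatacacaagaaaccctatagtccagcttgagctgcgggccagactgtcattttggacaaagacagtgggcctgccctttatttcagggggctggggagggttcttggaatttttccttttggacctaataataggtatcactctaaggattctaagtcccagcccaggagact
Bst2, chr8:71537473-71537722, minus strand: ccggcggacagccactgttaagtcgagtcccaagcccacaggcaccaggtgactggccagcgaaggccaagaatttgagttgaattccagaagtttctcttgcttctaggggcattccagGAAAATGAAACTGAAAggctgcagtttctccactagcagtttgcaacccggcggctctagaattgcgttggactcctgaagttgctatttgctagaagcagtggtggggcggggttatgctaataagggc

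On the knockout array most of the measured interferon-induced genes read lower than on the wild-type array. Of the 39 named genes, 33 reached the floor on both arrays, 4 on the wild-type array only and 2 (Mx2 and Oasl2) on neither. Differences are log2 knockout minus wild type, centred on the median of all measured probe sets (-0.10 before centring). Of the 33, 25 lay below 0 (75.8%) and 8 above, where 46.9% of all measured genes lay below 0. At least 2-fold lower were 11 of the 33, where 4.45% of all 10144 measured genes were, and at least 2-fold higher were 2 of the 33, where 7.15% of all were. Their median was -0.77, or -0.71 with 3 further genes at their bounds, beside 0.04 over all measured genes. The list was proposed with results of these arrays in view, so these counts describe it and are not independent evidence of a direction.

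The one internal error available is how far probe sets for a single gene differ. For the 4657 genes measured by more than 1 probe set, the brightest was compared with the next brightest. The SD of their difference, scaled down to the error of a single probe set, was 0.36 (log2). This SD per probe set ran from 0.43 where the dimmer probe set read under 200 to 0.24 where it read at least 2000. It leaves out the error of animals, cultures and arrays. Among the 33 genes, 12 had a further measured probe set, and in 10 of them all agreed in sign. The other two, Xaf1 and Zbp1, had a probe set of opposite sign, and 21 of the 33 rested on 1 measured probe set.

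**Figure D1:**
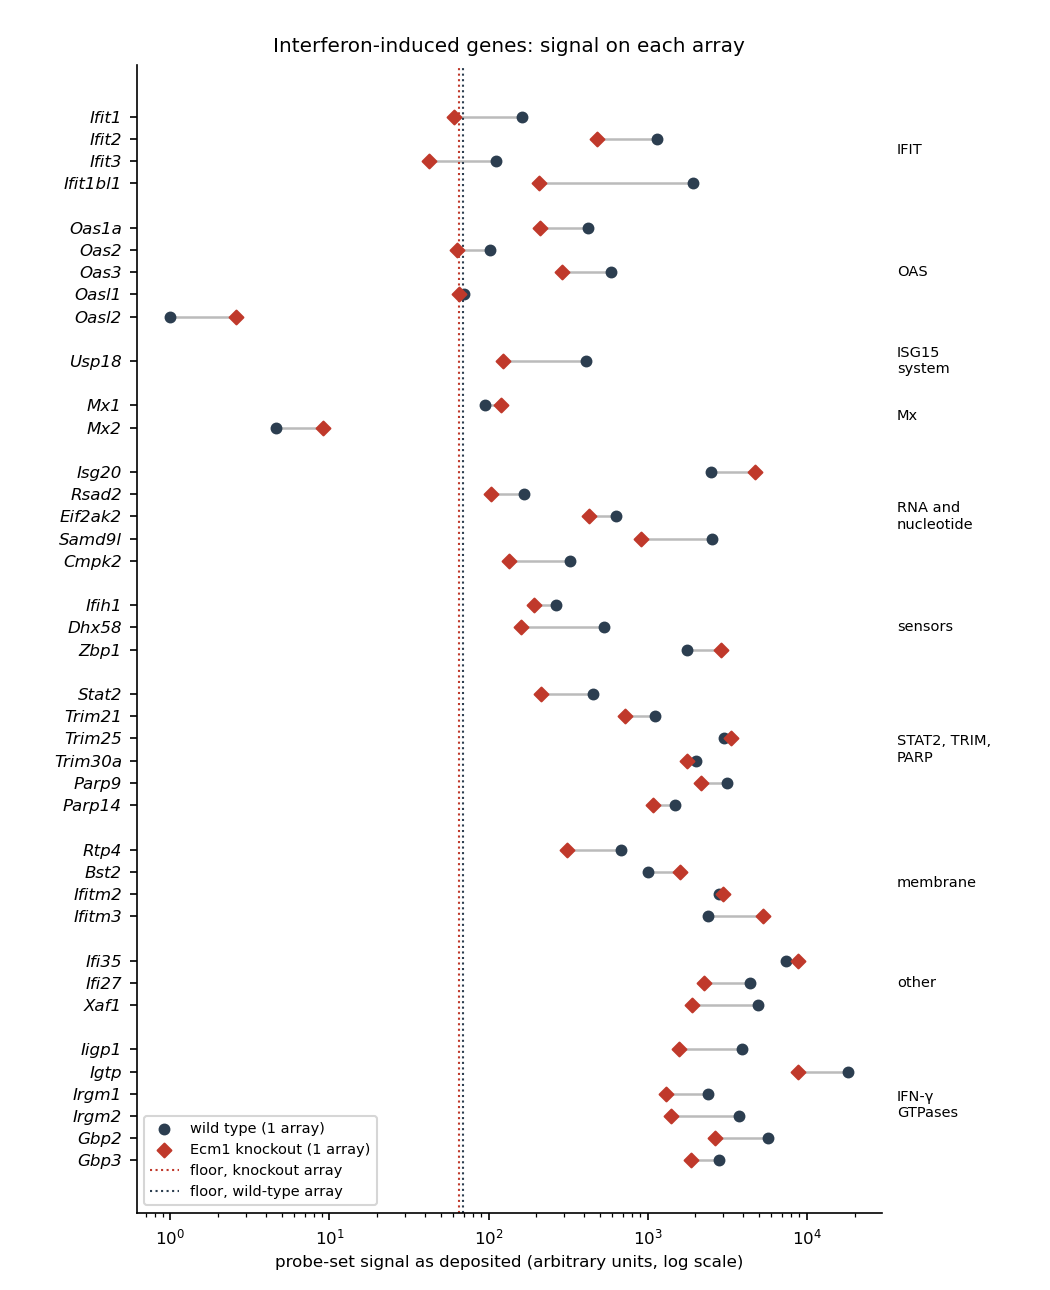
Signal of the brightest probe set of each of the 39 named genes on the wild-type array (dark circles) and the Ecm1 knockout array (red diamonds), on a log axis in arbitrary units, grouped by role, with the floor of each array dotted. All 6 IFN-γ GTPases sit further left in the knockout, while Ifitm3, Isg20, Zbp1 and Bst2 sit further right.

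The IFIT proteins, which grip foreign RNA ends and hold back its translation, gave the lowest value on the list. Ifit1bl1, a relative of Ifit1 in the same gene cluster, read 206.6 in the knockout against 1943.4 in wild type, a centred difference of -3.13 or 8.76-fold lower. Ifit2 read 482.3 against 1154.0, 2.23-fold lower (-1.16). Ifit1 was below the floor in the knockout (60.6) and read 163.0 in wild type, which makes it at least 2.32-fold lower. Ifit3 was also below the knockout floor (42 against 111), at least 1.58-fold lower. All 4 family members thus read lower in the knockout, each in a single probe set, and near-identical members may share signal.

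The OAS enzymes make the oligoadenylates that switch on the RNA-cutting enzyme RNase L. Oas1a read 209.9 in the knockout against 424.4 in wild type (-0.91), and Oas3 289.4 against 587.4 (-0.92). Both were just short of 2-fold after centring and stood at -1.02 in the signals as deposited. Oas2 was under the knockout floor (63.3 against 102.2, at least 1.45-fold lower). Oasl1 was just under the knockout floor and just above the wild-type floor (65.0 and 70.2) and gave no fold. Oasl2, at 2.6 and 1.0, was not measurable.

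Usp18, the protease that takes ISG15 off its targets and dampens the type I receptor, read 124.2 in the knockout against 412.6 in wild type, 3.09-fold lower (-1.63). With the floor at the 70th percentile its knockout signal has only a bound, of -0.48. Mx1, a GTPase against viral nucleocapsids whose C57BL/6 allele is known to be defective, read 119.5 against 94.7 (0.44), close to the floor. Mx2 was under the floor on both arrays, at 9.1 and 4.6.

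Proteins that act on RNA and nucleotides lay on both sides of 0. Samd9l, a restraint on growth and on poxviruses, read 914.2 in the knockout against 2538.5 in wild type, 2.59-fold lower (-1.37). Cmpk2, a mitochondrial nucleotide kinase, read 135.2 against 323.3 (-1.15), and was only bounded, at -0.13, under the 70th-percentile floor and at -0.70 with its probe sets averaged. Its genomic neighbour Rsad2, or viperin, which makes a chain-ending nucleotide, read 103.9 against 168.0 (-0.59). Eif2ak2, the RNA-activated kinase PKR, was at -0.45, with -0.48 and -0.11 in its further probe sets. In contrast, Isg20, an exonuclease of single-stranded RNA, read 4717.5 against 2508.2, 2.02-fold higher (1.01). That value sits on the threshold: it was 0.91 without centring, 0.92 after quantile normalization, 0.89 after loess and 0.99 with the higher floor.

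The sensors of foreign nucleic acid also differed among themselves. Dhx58 (LGP2), a helicase that tunes RNA sensing, read 160.3 in the knockout against 528.6 in wild type, 3.07-fold lower (-1.62), and its other probe sets were under the floor. With the higher floor its bound was -0.84, and with probe sets averaged -0.32. Ifih1 (MDA5), the sensor of long double-stranded RNA, read 192.3 against 267.4 (-0.37). Zbp1, a sensor of Z-form nucleic acid that can trigger necroptosis, read 2909.1 against 1765.0 in its brightest probe set (0.82). Its other probe set went the opposite way, at 972.6 against 1649.8 (-0.66), so no direction is given for this gene.

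Stat2, the signal carrier of type I interferon, read 214.5 in the knockout against 455.7 in wild type (-0.98), with -0.40 in a dimmer probe set. Among the ubiquitin ligases, Trim21, a cytosolic antibody receptor, was at -0.53 and -0.44 in its probe sets, and Trim30a at -0.09 and -0.55. Trim25, which acts in RNA sensing, was at 0.23, with 0.20 and 1.48 in its other probe sets. The ADP-ribosyltransferase family members Parp9 and Parp14 were at -0.44 and -0.34. Of these 6 regulators 5 lay below 0, beside 46.9% of all genes. None was 2-fold apart in its brightest probe set, where 4.45% of all genes were lower and 7.15% higher by as much.

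Of the 4 measured membrane and surface proteins, 3 were above 0. Ifitm3, which stops viruses fusing from endosomes, read 5292.1 in the knockout against 2413.9 in wild type, 2.35-fold higher (1.24), the highest difference on the list. Its relative Ifitm2 was near equal, at 2978.4 against 2799.0 (0.19). Bst2 (tetherin), which holds budding virus at the cell surface, read 1600.3 against 1006.4 (0.77). Rtp4, a chaperone of membrane receptors, was the exception, at 313.6 against 676.3, 2.01-fold lower (-1.01). It was under 2-fold after quantile normalization (-0.95) and loess (-0.97), and had a bound of -0.08 with its dim second probe set averaged in.

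Of the remaining type I effectors, Xaf1, a partner of the apoptosis inhibitor XIAP, read 1890.5 in the knockout against 4912.2 in wild type, 2.42-fold lower (-1.27). A much dimmer probe set of Xaf1 read 251.6 against 140.9 (0.94), and the mean of both was -0.17. Ifi27, a small membrane protein, was at -0.86, with -1.28 in its other probe set. Ifi35 was at 0.35, and its 3 probe sets lay between 0.20 and 0.35. In all, 8 of 27 measured type I effectors were at least 2-fold lower (29.6%, beside 4.45% of all genes) and 2 higher by as much (7.4%, beside 7.15% of all). The share of higher genes is thus near that of all genes. The median was -0.53, or -0.56 with bounds.

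The IFN-γ GTPases lay between -1.31 and -0.49, and all 6 read lower in the knockout. Irgm2 read 1412.5 in the knockout against 3764.4 in wild type, 2.48-fold lower (-1.31). Iigp1, an effector that coats the vacuoles of parasites, read 1582.6 against 3948.7, 2.32-fold lower (-1.22), with -1.35 in its other probe set. Gbp2, a guanylate-binding protein that helps break such vacuoles, read 2635.6 against 5748.1, 2.03-fold lower (-1.02), with -1.11 in its other probe set.

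Igtp, Irgm1 and Gbp3 lay within 2-fold. Igtp (Irgm3) read 8770.8 in the knockout against 18221.6 in wild type (-0.95), and it passed 2-fold under loess, under quantile normalization and in the uncentred signals. Irgm1, a regulator that keeps the effector GTPases off the cell's own membranes, read 1302.4 against 2382.8 (-0.77). Gbp3 read 1869.4 against 2814.4 (-0.49). The median of the 6 was -0.99, against -0.53 for the type I effectors, and whether the classes differ was not tested. These genes belong to families of similar sequence, so part of a signal may be shared.

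**Figure D2:**
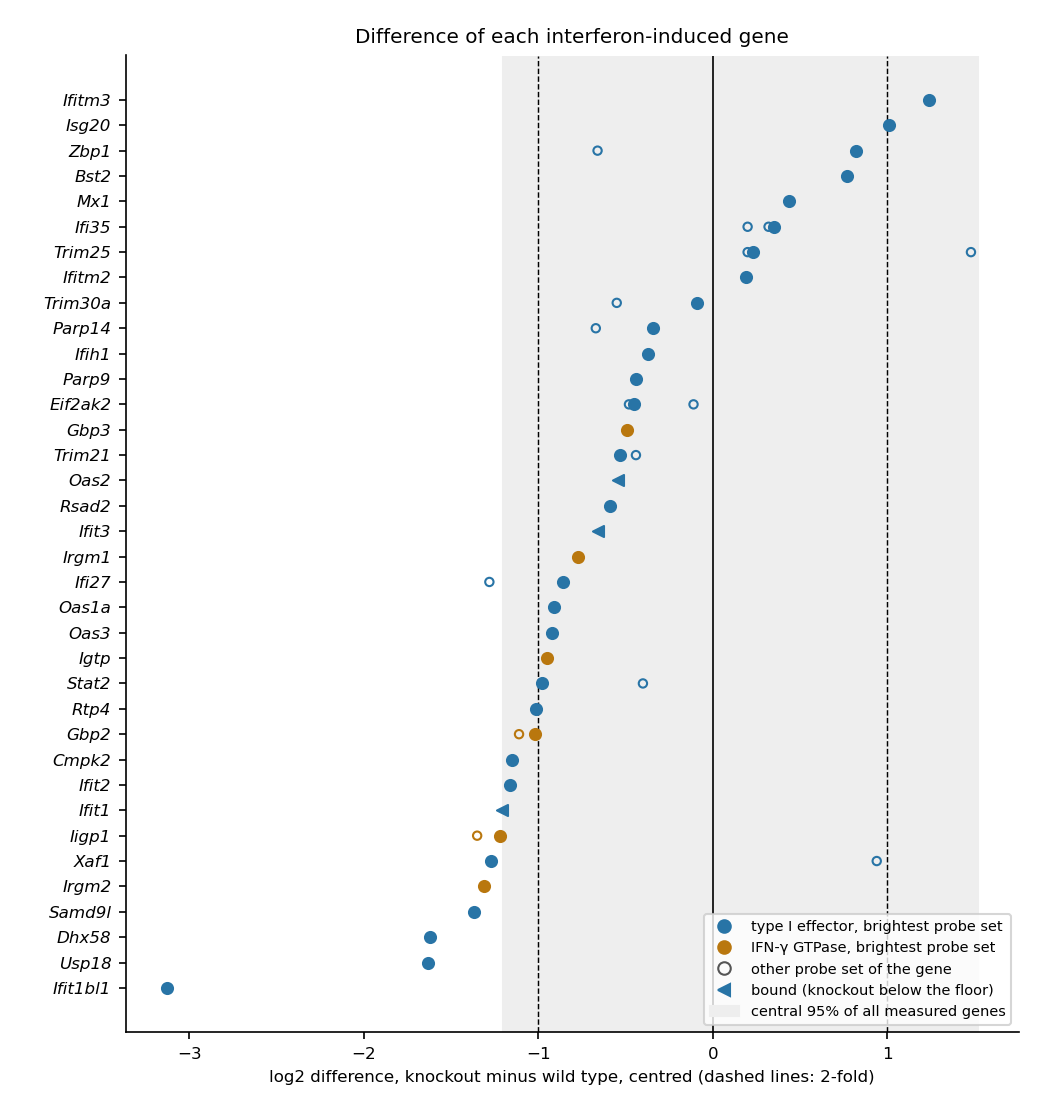
Centred log2 difference (knockout minus wild type) of each interferon-induced gene, type I effectors in blue and IFN-γ GTPases in orange, with further probe sets as open circles and bounds as arrowheads, over the central 95% of all measured genes (-1.20 to 1.52, grey). Ifit1bl1 at -3.13 lies furthest left, the GTPases lie between -1.31 and -0.49, and the further probe sets of Xaf1 and Zbp1 fall on the opposite side of 0.

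The ligands themselves were mostly unreadable. Of 10 named interferon genes, 9 were below the floor on both arrays, among them Ifnb1 and Ifng. Ifnz, a type I interferon of mice, was the exception at 159.3 in the knockout against 447.4 in wild type (-1.39).

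Of the receptors and proximal signalling genes, 12 of 16 measured were below 0, beside 46.9% of all genes. Ifngr1, the ligand-binding chain of the IFN-γ receptor, read 1306.9 in the knockout against 4464.5 in wild type (-1.67), while Ifngr2 was at 0.34. The type I receptor chains Ifnar1 and Ifnar2 were at -0.06 and -0.09, although further probe sets gave -1.12 for Ifnar1, and -0.49 and -0.52 for Ifnar2. Irf9, the DNA-binding partner of STAT2, read 1004.4 against 2165.4 (-1.01), on the 2-fold threshold in its only measured probe set. Jak1 was at -0.89, Jak2 at -0.78 and Tyk2 at -0.13. The feedback inhibitor Socs3 read 6126.3 against 14713.7 (-1.16), and Socs1 was at -0.42. The phosphatases Ptpn2, Ptpn6, Ptpn1 and Ptpn11 were at -0.30, 0.03, 0.10 and 0.11, Il10rb at -0.28 and the STAT inhibitor Pias1 at -0.27. Ifnlr1, of the type III receptor, reached the floor in the knockout only (78.5 against 49.5). Of the 16, 3 were lower by 2-fold or more (18.8%, beside 4.45% of all genes), and the median was -0.28. Higher by as much were 0 of the 16, beside 7.15% of all genes, which in a list this short is near that share.

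The interferon regulatory factors ran from lower to higher. Irf1 read 3561.4 in the knockout against 7064.1 in wild type (-0.89), Irf7 410.1 against 794.3 (-0.85), and Irf2 was at -0.44. Irf3 was at -0.13, Irf8 at 0.33 and Irf5 at 0.59. Irf4, which also drives plasma cells, read 7749.1 against 1891.7 (2.14, with 0.95 in its other probe set). It was the only one of the 7 at least 2-fold apart (14.3% higher, beside 7.15% of all genes). Upstream of type I interferon, the kinase gene Ikbke (-1.37) and the nucleotide hydrolase Samhd1 (-1.10) were lower, and the RNA sensor Tlr7 (1.54) and the RNase H subunits Rnaseh2c (1.15) and Rnaseh2b (1.13) were higher. Tlr7 was close to the wild-type floor (262.4 against 96.9), and its other probe sets gave 0.62 and 0.68. Rnaseh2a was at 0.91, and the adaptors Mavs and Sting1 were both at -0.14. Of the 13 measured genes of this upstream list, which mixes sensors, adaptors, kinases and nucleic acid enzymes, 8 were within 2-fold. The median was 0.29. Of the rest, 2 were lower (15.4%, beside 4.45% of all genes) and 3 higher (23.1%, beside 7.15% of all).

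A further list of interferon-induced genes outside the 42 also had most members below 0, 45 of 66 measured (68.2%, beside 46.9% of all genes). Of the 66, 10 were 2-fold or more lower (15.2%, beside 4.45% of all) and 4 were 2-fold or more higher (6.1%, beside 7.15% of all). The share of higher genes was no larger than that of all genes, and the median was -0.34. Among genes measured on both arrays, the lowest were the chemokine Ccl5 (-1.97), the lymphocyte membrane gene Ms4a4b (-1.65), Calhm6 (-1.60) and the Schlafen gene Slfn1 (-1.60). Slfn5, singled out after its values were seen, was under the floor in the knockout only (45.0 against 404.8), with a bound of -2.52. The other genes of this list that reached the floor on 1 array only were also named after their values were seen. In wild type they were Ddx60 and Slfn4, with bounds of -0.32 and -0.30. In the knockout they were Cxcl10, Il18bp and Gca, with bounds of 0.90, 0.37 and 0.15. The highest measured on both arrays were the inflammatory caspase Casp4 (1.73), Trim30d (1.52), the lysosomal thiol reductase Ifi30 (1.18) and the necroptosis executor Mlkl (1.01). Mlkl sits on the 2-fold threshold. The 3 guanylate-binding genes measured in this list, singled out after their values were seen, were Gbp8 at -1.32, Gbp6 at -1.11 and Gbp7 at -0.96. Antigen-presentation genes of MHC class I, also interferon-inducible, lay close to 0, with a median of -0.09 over 12 genes. None of the 12 was 2-fold apart. That is near the shares of all genes, 4.45% lower and 7.15% higher by as much. The peptide transporter genes Tap1 and Tap2 (-0.41 and -0.32) and the immunoproteasome genes Psmb10 and Psmb9 (-0.31 and -0.22) were lowest. Erap1 (0.42), Tapbpl (0.17), B2m (0.04) and H2-K1 (-0.02) were highest.

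**Figure D3:**
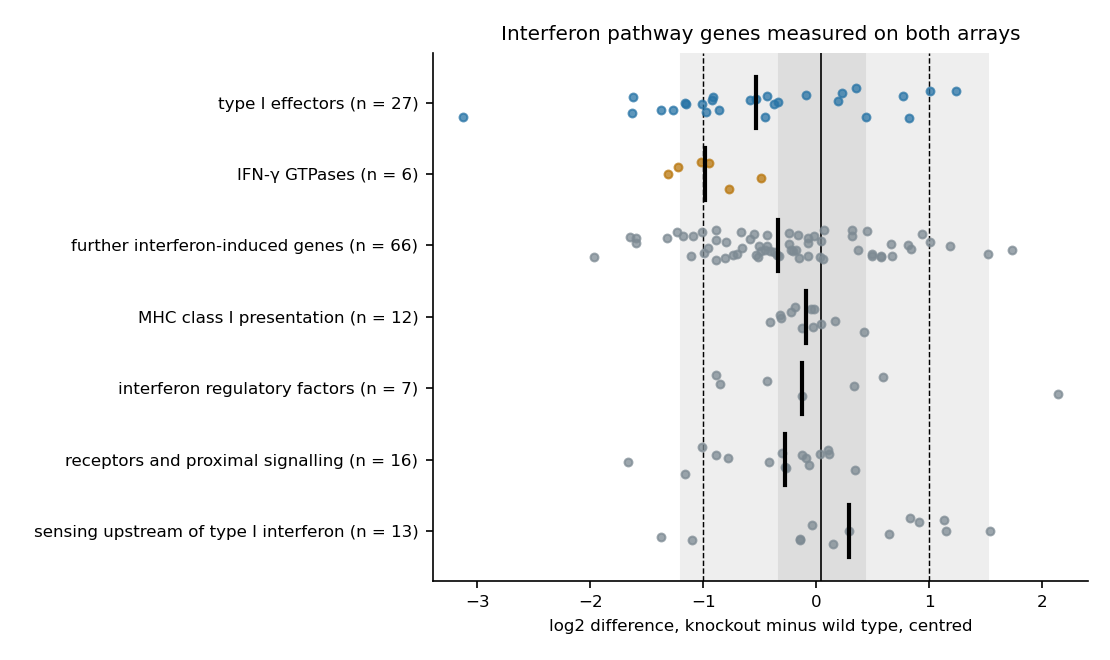
Centred log2 differences of genes measured on both arrays, by list, with 1 point per gene and the list median as a black bar, over the central 95% (light grey) and the middle 50% (dark grey) of all measured genes. The IFN-γ GTPases lie wholly below 0 with a median of -0.99, and the MHC class I genes lie between -0.41 and 0.42.

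Markers of the cells in the culture also differed between the arrays. All 10 measured T cell markers read lower in the knockout, 6 of them at least 2-fold (60.0%, beside 4.45% of all genes). Their median was -1.16 and their summed signal 44400.0 against 90661.3. Their range, from -2.64 for Trat1 to -0.52 for Cd3d, overlaps that of the interferon-induced genes, of which 7 of 33 lay below the T cell median. Markers of natural killer and CD8 T cells had a median of -1.19 over 8 genes, with 5 at least 2-fold lower (62.5%, beside 4.45% of all genes). Only Eomes lay above 0 (0.35), and Ncr1 was under the floor on both arrays. The summed signal of the 10 named genes was 24682.9 against 52404.7. Most of it came from Gzma (8692.4 and 29033.8) and Gzmb (14331.3 and 19512.5). In bulk RNA, fewer T cells and less RNA per T cell cannot be told apart.

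Markers of other cells were higher on the same array. All 10 measured B cell markers lay above 0, 4 at least 2-fold (40.0%, beside 7.15% of all genes). Their median was 0.96, and Pax5 was under the floor on both arrays. Sums run over all named genes of a list, also those under the floor. For the 11 B cell genes they were 36123.2 and 18343.6. Plasma cell markers had a median of 1.53 over 7 genes, 5 at least 2-fold higher (71.4%, beside 7.15% of all genes). The sums of the 8 named genes were 111079.7 and 47897.4. Macrophage and monocyte markers had a median of 1.04 over 8 genes, 4 at least 2-fold higher, with sums of 17972.4 and 11305.9, and Itgam and Marco were under the floor on both arrays. Dendritic cell markers, a list that includes Bst2 and Irf8, had a median of 0.77 over 7 genes, and Siglech was under the floor on both arrays. Of 10 neutrophil markers 2 were measured on both arrays. What part these cells have in the interferon-induced values was not tested.

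**Figure D4:**
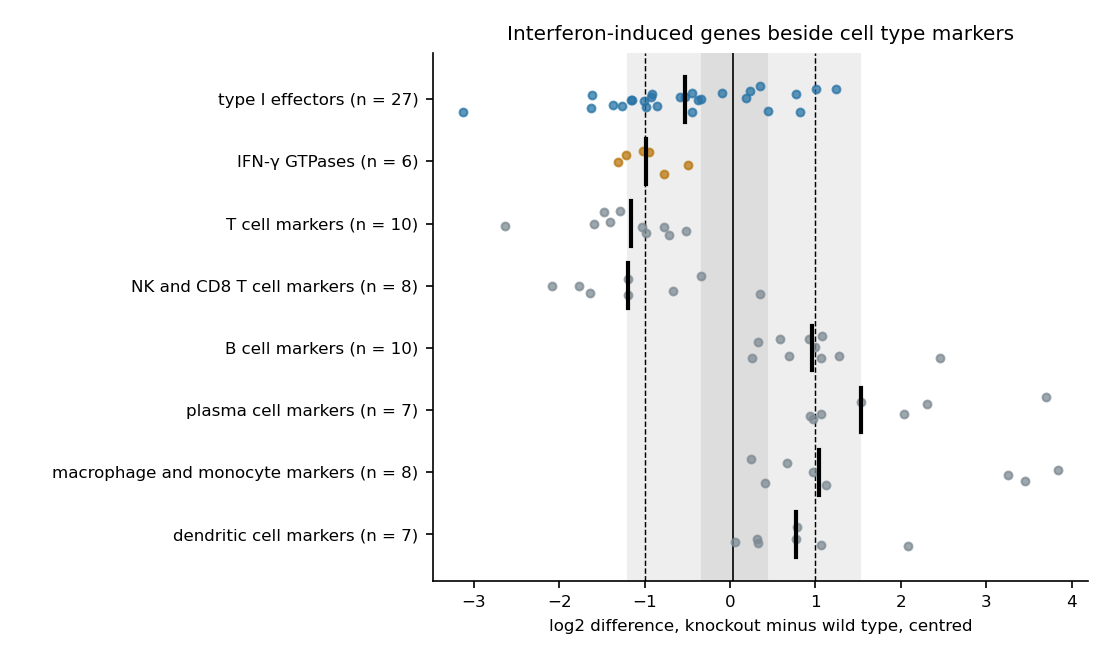
Centred log2 differences of interferon-induced genes beside markers of the cells a CD4 isolate could hold, with 1 point per gene measured on both arrays and medians as black bars, over the central 95% (light grey) and middle 50% (dark grey) of all measured genes. T cell markers (median -1.16) overlap the IFN-γ GTPases (median -0.99), and B cell, plasma cell and macrophage markers lie above 0.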

How the data were processed

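The authors deposited a table of linear signal intensity with 45101 Affymetrix mouse probe sets and a column for each array. Biotin-labelled cRNA was made from 3 µg of total RNA, per the labels' protocols. No source used here names the summarisation software. Leaving out the extreme signals, the central 96% average 500.0 on each array, as a global scaling gives. Under such scaling more signal in abundant transcripts can lower the rest.

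Probe sets annotated to 1 gene symbol (34945) were used, and a gene with several was read from the brightest, by mean log2 signal over the arrays. Log2 differences were centred on the median of 20834 non-control probe sets that reached each array's floor, its median signal. A gene under the floor on 1 array has a bound against that floor. With 1 array per group no test was run, and counts past 2-fold are descriptions. The members and lists were chosen with earlier results of these data known. Named were all listed genes, the receptors and proximal signalling genes, the regulatory factors, and the 4 lowest and 4 highest genes of other pathway lists. The number of arrays limits the precision. The procedure was tested on simulated data. Alternatives were no centring, quantile normalization, loess (span 0.3), a floor at the 70th percentile, no floor, averaged probe sets, exclusion of _x_at and _s_at probe sets, and a 1.5-fold threshold. Python 3.11.15 with numpy 2.4.6, pandas 2.3.3 and statsmodels 0.14.6 was used.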

Additional observations from a re-analysis of the deposited data

Results flagged for a closer look

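Isg15, the ubiquitin-like product that Usp18 removes, is represented by a probe set annotated to both Isg15 and Gm9706, which no gene value above uses. It stood out as signal in unused data that was higher in the knockout (419.5) than in wild type (355.0). The difference was 0.34 after centring, which is less than the SD per probe set. A probe set annotated to both Trim30d and Trim30a read 406.6 and 427.7 (0.03). Neither signal can be assigned to a single gene.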

How the results depend on the processing

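No paired analysis was possible because there was 1 array in each group. No measured member changed sign in any of the 7 alternatives that give a difference. Of 228 recomputed member values, 217 moved by less than the SD per probe set. Part of this was fixed in advance. Removing the floor leaves a measured member's value as it was, and averaging cannot move a gene with 1 probe set. Removing the centring shifts every value by the same amount, which is less than that SD. A bound was kept only where it pointed toward the array that reached the floor. Of the 13 members past 2-fold, 7 (Ifit1bl1, Ifit2, Samd9l, Irgm2, Iigp1, Gbp2 and Ifitm3) stayed past it wherever they had a value, Ifit1bl1 as a bound at the higher floor. The count at least 2-fold lower was 11 and became 7 among 24 measured under a 70th-percentile floor (3.87% of all genes) and 18 at the 1.5-fold threshold (13.6% of all). For the type I effectors it was 8 and became 4 at that floor, 5 with probe sets averaged, where 23 were measured, and 13 at 1.5-fold. At 1.5-fold it was 5 for the GTPases and 22 for the further genes. The count at least 2-fold higher was 2 and became 1 (Ifitm3) without centring, after quantile normalization, after loess and at the higher floor, where 5.65% to 7.05% of all genes were higher. It became 4 with no floor, where 15.7% of all genes were higher, and 4 at 1.5-fold, where 18.3% were. Without centring, 6.02% of all genes were at least 2-fold lower and 5.79% higher, and 15 of 33 members were lower. The median of all measured genes then was -0.06 and that of the members -0.87. The members' median was nearer 0 at the 70th-percentile floor (-0.54) and with probe sets averaged (-0.49), beside 0.02 and 0.03 over all genes. With probe sets averaged, 8 of 29 members were at least 2-fold lower, beside 4.41% of all genes. Members near the floor, such as Ifit1, Ifit3, Oas2 and Mx1, are limited by signal over background.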

Other observations

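Among the measured interferon-induced genes with a promoter window, the 17 with a core ISRE had a median difference of -0.59, with 3 lower and 1 higher by 2-fold or more. The 7 without one (Ifit2, Isg20, Ifi35, Trim25, Xaf1, Samd9l and Cmpk2) had a median of -1.15, with 4 lower and 1 higher. Over all measured genes 4.45% were lower and 7.15% higher by as much, and 1 higher of 17 is near that share. The 9 with a core GAS had a median of -0.45 and the 15 without one -0.77. These groups were not tested against each other. Across the further interferon-induced genes, 30 of 79 with a window (38.0%) held the core ISRE and 6 (7.6%) the core GAS. Of 22 windows of listed genes with a core ISRE, 15 had their first match within the 150 bases before the start site. That stretch makes up 150 of the 300 bases of a window. The share over all windows with a core was not counted, so 15 of 22 is not read as a trait of these genes.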
